A study of Rattus norvegicus with 10 samples.

Results

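The 5 arrays of control rat penile tissue fell into a gland-rich set of 2 arrays and a gland-poor set of 3 arrays, chosen by the level of Pigr. Pigr encodes the polymeric immunoglobulin receptor, which carries IgA and IgM across gland epithelium into secretions. An array was called gland-rich if its Pigr intensity lay above 3000 and gland-poor if it lay below 1500, so 5 of the 10 arrays of the series were used, and the 5 diabetic arrays were not. The Pigr values that selected the arrays were 53.9, 122 and 1134 in controls 1, 2 and 4 (gland-poor) and 3491 and 5844 in controls 3 and 5 (gland-rich). Control 3 at 3491 was the array just inside the upper limit, and control 4 at 1134 was the array just inside the lower one. Throughout, gland-poor values are given in the order controls 1, 2 and 4, and gland-rich values in the order controls 3 and 5.

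The series compared cavernosal tissue of control F344 rats with that of F344 rats made diabetic with streptozotocin, with total RNA of each sample on 1 Affymetrix array. All 5 samples used here carry the same label, control F344 penis described as cavernosal tissue, with no allele or agent named. Age, the exact site of the dissection and whether each array is 1 animal or a pool are not stated in the labels. An array measures 15866 probe sets, groups of short probes for 1 transcript, of which 12783 were paired with 1 gene. Median intensity ranged from 117 to 129 over the 5 arrays. A probe set was kept if at least 2 of the 5 arrays lay above an intensity of 83.5, and 10145 passed.

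The corpus cavernosum is a sponge of blood-filled spaces lined by endothelium and walled by smooth muscle and collagen, and its filling gives erection. The rat penis also holds the urethra with mucosal glands, a bone, keratinised skin on the glans and striated muscle at its base. Gland cells take up chloride and move water and protein into a lumen, and their protein output depends on the folding machinery of the endoplasmic reticulum (ER). When that machinery is loaded, ATF6 and XBP1 can act on an upstream sequence called the ER stress response element. Chemokines and cytokines of acute inflammation are classical targets of the factor NF-kB.

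Of 13 secretory and 13 transport genes that passed the filter, 8 of each lay higher in the arrays called gland-rich, against 28.1% of all probe sets. Among them are Pigr, which chose the sets, and Ccl28 and Scnn1a, which passed only through the gland-rich arrays. Control 4 held an intermediate place for many secretory and transport genes. The 3 male accessory gland genes that passed overlapped. Because the same arrays chose the sets, every difference below is a description of 5 arrays, and none was tested. In bulk tissue, fewer cells of a type and less RNA per cell cannot be told apart. The gap of a gene is the distance between its nearest arrays, the lowest of the higher set against the highest of the lower set, in log2 of intensity plus 16; a gap below 0 means that the gland-rich arrays were lower, and overlapping sets have none. Folds between nearest arrays are on the same scale, intensity plus 16, and are smaller than the ratio of the intensities where these are low. Scan day 1 held controls 1 and 5, and scan day 3 held controls 2 and 3. Each of these days had 1 operator and 1 station in the file headers. Both days thus give a within-day pair, a gland-rich minus a gland-poor array. Control 4 was alone on its day and station, so its place cannot be told apart from its day or station.

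Upstream sequences of 3 ER genes and 2 inflammatory genes are shown because those gene groups lay in opposite directions between the sets. Each is the 250 bases before the start site in RefSeq on build GRCr8, 5′ to 3′ along the gene. Capitals mark a match to the ER stress response element (CCAAT, 9 free bases, CCACG) in Hspa5, Dnajc3 and Creld2, and to an NF-kB motif (GGGA, any base, TTTCC) in Cxcl1 and Il6. The match in Creld2 is on the opposite strand, so its capitals are the reverse complement of the element. Hspa5 lies at chr3:38452766-38453015 on the plus strand, Dnajc3 at chr15:102432417-102432666 on the plus strand, Creld2 at chr7:121789134-121789383 on the plus strand, Cxcl1 at chr14:17479322-17479571 on the minus strand and Il6 at chr4:5894576-5894825 on the minus strand.
Hspa5: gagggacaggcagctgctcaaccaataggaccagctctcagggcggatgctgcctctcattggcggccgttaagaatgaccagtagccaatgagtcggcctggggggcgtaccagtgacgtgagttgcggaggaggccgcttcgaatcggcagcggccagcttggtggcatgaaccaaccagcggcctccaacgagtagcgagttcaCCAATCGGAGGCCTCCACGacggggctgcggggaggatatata
Dnajc3: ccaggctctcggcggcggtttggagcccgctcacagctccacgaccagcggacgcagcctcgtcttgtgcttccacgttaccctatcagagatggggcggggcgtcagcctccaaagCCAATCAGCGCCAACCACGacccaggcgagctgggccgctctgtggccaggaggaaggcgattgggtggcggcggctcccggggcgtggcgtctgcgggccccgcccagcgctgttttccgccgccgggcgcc
Creld2: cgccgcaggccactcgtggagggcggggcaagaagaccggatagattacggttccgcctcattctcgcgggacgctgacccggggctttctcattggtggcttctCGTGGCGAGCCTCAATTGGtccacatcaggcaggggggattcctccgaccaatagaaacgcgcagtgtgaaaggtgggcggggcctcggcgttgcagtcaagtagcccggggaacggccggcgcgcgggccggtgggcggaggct
Cxcl1: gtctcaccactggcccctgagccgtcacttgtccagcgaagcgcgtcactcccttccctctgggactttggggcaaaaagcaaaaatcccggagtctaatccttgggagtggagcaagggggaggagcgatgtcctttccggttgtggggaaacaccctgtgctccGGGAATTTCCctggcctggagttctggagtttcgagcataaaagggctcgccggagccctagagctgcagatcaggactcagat
Il6: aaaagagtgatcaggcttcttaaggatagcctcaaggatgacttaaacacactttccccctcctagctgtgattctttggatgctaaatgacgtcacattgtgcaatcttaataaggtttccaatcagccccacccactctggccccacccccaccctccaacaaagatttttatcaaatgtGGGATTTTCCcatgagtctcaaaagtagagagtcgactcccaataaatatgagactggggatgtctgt

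Both strands of the full windows, which run to 50 bases after the start site, were searched for 3 motifs. RefSeq windows matched 19 of the 25 ER genes and 7 of the 9 inflammation genes on the array by symbol. The ER stress response element matched in 7 of 19 ER gene windows (36.8%) and in 21 of 27457 windows of all genes (0.0765%). The 7 were Hspa5, Hsp90b1, Calr, Canx, Dnajc3, Xbp1 and Creld2, and Hsp90b1 held it at 2 places. The shorter core TGACG followed by TGG matched in 1 of the 19, Kdelr3, against 175 of all windows (0.637%). The NF-kB motif matched in Cxcl1 and Il6, 2 of 7 windows of the inflammation list (28.6%), against 102 of all windows (0.371%). No window of these lists held matches to more than 1 of the motifs. A match is a run of letters and not evidence of binding. The motifs were chosen because they are known for genes of these kinds, so the shares say nothing about these arrays. No enrichment was tested.

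Across the 10145 probe sets, 2847 lay higher in both gland-rich arrays than in all 3 gland-poor arrays (28.1%), and 2741 lay lower in both (27.0%). At least 2-fold between the nearest arrays, 328 were higher (3.23%) and 68 were lower (0.670%). The 328 held 262 named genes and the 68 held 59. As the gland-rich set has 2 arrays and the filter asks for 2, a probe set could pass through those arrays alone. Of all that passed 282 did so, and 85 of the 328. Another 317 passed through gland-poor arrays alone, so the lower counts hold such probe sets too. These shares are the background against which counts of gene groups are set below, where a list member named only with such a count was chosen after its values were seen, and the rule itself fixed the contrast they come from. Leaving out control 3 gave 626 higher and 414 lower by at least 2-fold, and 4246 lower without overlap. Leaving out control 5 gave 173 lower by at least 2-fold. Pearson's r across probe sets was 0.950 to 0.974 among the gland-poor arrays, 0.940 between the gland-rich arrays and 0.780 to 0.896 between the sets. The highest of the between-set values joined controls 3 and 4.

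**Figure D1:**
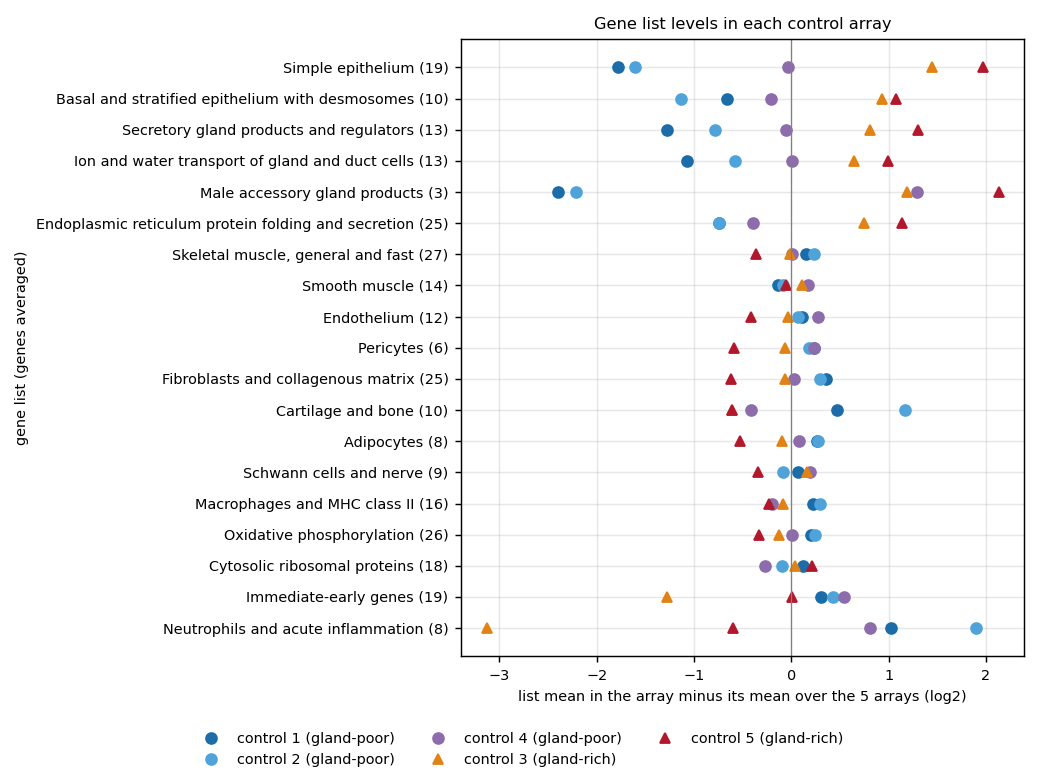
Mean log2 level of each gene list in an array minus its mean over the 5 control arrays; circles are gland-poor arrays, triangles gland-rich arrays, and the number of genes averaged is in parentheses. Epithelial, secretory gland, gland transport and ER lists lie to the right in controls 3 and 5 with control 4 between. For male accessory gland products control 4 lies slightly to the right of control 3. The inflammation list lies far to the left in control 3 and less far in control 5.

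Simple epithelium, the single-layered lining of glands and ducts, lay higher in the gland-rich arrays. Of 20 list genes on the array 19 passed the filter, and 19 of 19 lay higher in the gland-rich arrays, 17 of them by at least 2-fold. The shares over all probe sets were 28.1% and 3.23%. Of the 19, 5 (Rab25, Krt7, Ehf, Cldn4 and Prss8) passed the filter only through the gland-rich arrays and so had to be higher, and the other 14 had a gland-poor array above the filter as well, 12 of them higher by at least 2-fold. The mean log2 level of the list was 5.92, 6.10 and 7.67 in the gland-poor arrays and 9.15 and 9.67 in the gland-rich arrays. The median difference within a scan day was 3.78 on day 1 and 3.37 on day 3, against -0.05 and 0.03 over all probe sets.

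Epcam, an adhesion molecule of epithelial cells, had intensities of 43.1, 83.4 and 602 in the gland-poor arrays and 2201 and 3243 in the gland-rich arrays, a gap of 1.84. Krt8, a keratin of simple epithelium, was 49.5, 65.5 and 390 against 1268 and 2117, a gap of 1.66. Spint2, an inhibitor of epithelial serine proteases, was 306, 337 and 1308 against 4591 and 6999, a gap of 1.80. All 3 genes had the same order, controls 1 and 2 lowest, then control 4, control 3 and control 5. Cd24, a surface glycoprotein found on many epithelial cells, was 557, 795 and 1402 against 4297 and 5816, a gap of 1.60. Prom1, a membrane protein of epithelial cell protrusions, was 247, 257 and 245 against 418 and 454 and had the smaller gap of 0.67. Tmprss2, a membrane serine protease, was 22.2, 38.6 and 229.9 against 1256 and 1950.3, and its other probe set was apart by 3.30-fold between nearest arrays in the same direction.

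Chosen after their values were seen, the junction gene Cdh1 and the transcription factor Ehf were very dim in control 1, unlike the brighter members of the list. Cdh1, the cadherin that joins epithelial cells, was 3.3, 17.6 and 98.8 against 327 and 476. Ehf was 2.1, 6.7 and 68.1 against 299.9 and 436. The brighter members kept a clear level in control 1, such as Cd24 at 557. No uroplakin comparison was possible because 1 of 6 listed urothelial genes was on the array and it did not pass the filter.

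Basal and stratified epithelium, the layer that rests on the basement membrane, gave 10 of 13 genes that passed, all 10 higher in the gland-rich arrays and 4 (Itgb4, Dsp, Perp and Krt15) by at least 2-fold; Lama3, Evpl and Krt14 passed only through the gland-rich arrays. For all probe sets the shares were 28.1% higher and 3.23% higher by at least 2-fold. The list mean was 7.15, 6.68 and 7.60 against 8.75 and 8.89. Krt15, a basal keratin, was 76.2, 56.2 and 148 against 1068 and 1064, a gap of 2.72 that was the sixth largest above among named genes. Itgb4, the integrin of hemidesmosomes, was 568, 377 and 538 against 1322 and 1355, a gap of 1.20. Dsp, the desmosomal plaque protein, was 142, 116 and 247 against 750.1 and 1167, a gap of 1.54. For Krt15 and Itgb4 controls 3 and 5 were near equal, whereas simple epithelial genes were higher in control 5. Perp, a desmosome-associated membrane protein, was 80.3, 48.4 and 234 against 1106 and 1771, and Jup, the plaque protein plakoglobin, was 198, 228 and 343.5 against 554 and 501.

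Keratinised surface epithelium did not follow the sets. Of 13 cornified genes on the array 4 passed the filter, with 1 higher and 3 overlapping. The 1 was Krt4, a keratin of moist stratified epithelium that passed only through the gland-rich arrays, at 57.1, 75.2 and 82.1 against 506 and 408. Krtdap, Krt10 and Sprr3, genes of skin differentiation chosen after their values were seen, stood out in control 1 alone. None of them passed the filter, so they are not the 3 overlapping genes, which were Dmkn, Sprr1a and Lgals7. Krt10 was 199 in control 1 and between 27.1 and 37.1 in the other arrays. Krtdap was 322 in control 1 and between 27.9 and 45 elsewhere. Sprr3 was 102 in control 1 and between 9.2 and 15.2 elsewhere. Lgals7, a galectin of stratified epithelium, was high in controls 1, 3 and 5, at 195, 154 and 137, and was 7.4 and 12.5 in controls 2 and 4. Control 1 was thus gland-poor but carried skin-type transcripts, and the part of these in the other differences was not tested.

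**Figure D2:**
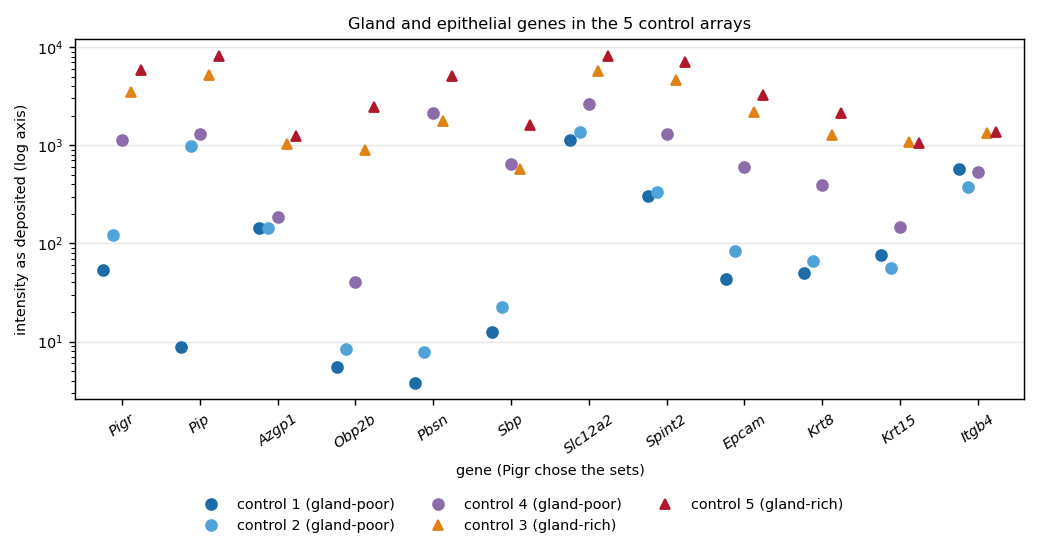
Deposited intensity (log axis) of gland and epithelial genes in the 5 control arrays; circles are gland-poor and triangles gland-rich arrays, one point per array, and Pigr is the gene that chose the sets. Most genes order as controls 1 and 2, control 4, control 3, control 5, while for Pbsn and Sbp control 4 lies above control 3.

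Of the secretory gland products and their regulators, 21 of 34 genes were on the array and 13 passed; 8 lay higher in the gland-rich arrays, 7 of them by at least 2-fold, 1 lay lower and 4 overlapped. Pigr, which chose the sets, is 1 of the 8, and Ccl28 passed only through the gland-rich arrays. Among all probe sets 28.1% lay higher, 3.23% by at least 2-fold, and 27.0% lay lower. Pip, a secreted protein of exocrine glands, was 8.8, 989 and 1312 against 5138 and 8140, a gap of 1.96. Its level in control 1 was near the bottom of the array while control 2 was close to control 4, so the gland-poor arrays were not alike. Azgp1, a secreted zinc-binding glycoprotein, was 145, 144 and 185 against 1024 and 1241, a gap of 2.37. Creb3l1, a transcription factor tied to secretory capacity, was 246, 216 and 278 against 638 and 838, a gap of 1.16. For Azgp1 and Creb3l1 control 4 was close to controls 1 and 2 and well under control 3. Dmbt1, a glycoprotein of mucosal defence, was 228, 193 and 427 against 298 and 476, and its sets overlapped because control 4 exceeded control 3.

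Lpo, Vcsa2 and Ccl28 completed the group at least 2-fold higher beside Pip, Pigr, Azgp1 and Creb3l1, and were chosen after their values were seen. Lpo, the lactoperoxidase of secretions, was 43.2, 31.2 and 107 against 537 and 914. Ccl28, a mucosal chemokine that attracts IgA-producing cells, was 3.7, 4.1 and 82.6 against 327 and 582, and was near the bottom of the array in controls 1 and 2. The light chain gene Iglc1, also chosen afterwards, was 103, 121 and 86.8 against 204 and 306, and among the gland-poor arrays it was lowest in control 4, where Pigr was highest. The members were not uniformly higher. Tff1, a trefoil peptide of mucus-producing cells, was 118, 128 and 77.9 against 75.1 and 68.9, a gap of -0.04. It passed the filter only through the gland-poor arrays.

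Ion and water transport genes of gland and duct cells gave 8 of 13 higher, 4 by at least 2-fold, 3 lower (Aqp4, Slc4a4 and Kcne3) and 2 overlapping. Of the 13, 1 (Scnn1a) passed only through the gland-rich arrays and 2 only through the gland-poor arrays. The shares over all probe sets were 28.1% higher, 3.23% by at least 2-fold, and 27.0% lower. Slc12a2, the cotransporter that loads secretory cells with chloride, was 1134, 1362 and 2609.5 against 5755 and 8067, a gap of 1.14. Fxyd3, a regulator of the sodium pump, was 84.7, 151 and 909 against 3189 and 4742, a gap of 1.79. Atp1b1, the pump's beta subunit, was 756, 862 and 1781 against 2833 and 4645, a gap of 0.66. In all 3 genes control 4 exceeded controls 1 and 2. Aqp5, the water channel of exocrine glands and chosen after its values were seen, was 8.3, 16.4 and 315 against 1319 and 2411, a gap of 2.01. Aqp4, the water channel of fast skeletal muscle and astrocytes, lay the other way at 612, 636 and 663 against 332 and 166, a gap of -0.85. Car2, a carbonic anhydrase, was 142, 672 and 202 against 637 and 713, and its sets overlapped because control 2 was as high as the gland-rich arrays.

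Of the male accessory gland products, Pbsn and Sbp were shared by controls 3, 4 and 5. Pbsn, the prostatic protein probasin, was 3.8, 7.9 and 2133 against 1773 and 5060.2, and Sbp, a prostatic spermine-binding protein, was 12.4, 22.5 and 644 against 571 and 1597. For both genes control 4 lay slightly above control 3, controls 1 and 2 were near the bottom of the array, and the sets therefore overlapped. In this pair of genes control 4 stood with the gland-rich arrays, whereas its Pigr level placed it in the gland-poor set. Klk1, tissue kallikrein, was 92.8, 81.4 and 77.7 against 86.2 and 76.5 and lay within a narrow range. The remaining 8 genes of this list on the array did not pass the filter, seminal vesicle genes among them.

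The machinery for folding and exporting proteins was higher throughout: 25 of 25 genes passed the filter and all 25 lay higher in the gland-rich arrays, 13 by at least 2-fold. For all probe sets the shares were 28.1% higher and 3.23% higher by at least 2-fold. The list mean was 9.13, 9.13 and 9.47 against 10.62 and 11.00. Its median difference was 1.79 on scan day 1 and 1.51 on scan day 3. Tram1, a protein of the translocation channel, was 1139, 1004 and 1546 against 3678 and 5446, a gap of 1.24. Calr, the chaperone calreticulin, was 1248, 1313 and 1766 against 3654 and 3999, a gap of 1.04. Pdia3, a disulfide isomerase, was 1395, 1145 and 1506 against 2915 and 3972, a gap of 0.95. In each of these the 3 gland-poor arrays lay close together, with control 4 slightly higher than the other two. Ssr4, a subunit of the translocon-associated complex, was 1395, 1336 and 1283 against 2834 and 3725, and Ssr3 of the same complex was 2512, 2419 and 1991 against 3249.6 and 4032 with the small gap of 0.37.

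Hspa5, Dnajc3 and Creld2, whose upstream sequences are printed above, and Xbp1 were chosen after their values were seen. Hspa5, the chaperone BiP, was 949, 1015 and 1306 against 2587 and 3353, a gap of 0.98. Dnajc3, a cochaperone of BiP, was 163, 182 and 305 against 1436 and 2139, a gap of 2.18. Creld2, a secreted protein made under ER stress, was 88.5, 80.2 and 179 against 790.4 and 857, a gap of 2.05. Dnajc3 and Creld2 thus had gaps larger than Hspa5, and control 4 lay above controls 1 and 2 and nearer to them than to control 3 in all 3. Xbp1, the factor that drives secretory expansion, was 1035, 1269 and 1491 against 2817 and 3629, a gap of 0.91. Cytosolic ribosomal proteins did not share this: of 18 that passed, 7 lay higher, 1 (Rpl24) lower and 10 overlapped, none by 2-fold. The shares over all probe sets were 28.1% higher and 27.0% lower. The ribosomal list mean was 12.12, 11.89 and 11.72 against 12.03 and 12.20.

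Among all named genes, the largest gaps above combined secreted proteins, channels and epithelial proteins. Obp2b, an odorant-binding lipocalin, was 5.5, 8.5 and 40 against 902 and 2470.3, a gap of 4.04. Lad1, an anchoring filament protein of basement membrane, was 7.6, 6.8 and 10.9 against 272 and 344.4, a gap of 3.42 that was 4.52 with 1 and 2.17 with 64 added in place of 16. Kcne1, a potassium channel subunit, was 4.8, 16.9 and 179 against 1699.7 and 3030.1, a gap of 3.14. These 3 were dim in controls 1 and 2, and control 4 held a clear level of Kcne1 but not of Lad1. Wfdc18, a secreted protein with a whey acidic protein domain, was 122, 25 and 256 against 1812 and 3503. Isyna1, the enzyme that makes inositol phosphate, was 12.9, 52.3 and 38.8 against 515 and 442. Abo3, a glycosyltransferase of the ABO blood group family, was 5.3, 6.2 and 123 against 853 and 1354, and 2 of its other probe sets separated the sets in the same direction. Ighl2 was 104, 118 and 221 against 1226 and 2597.
The rest of the 15 were Krt15, Azgp1 and Tmprss2, given above, the adaptor Stap2, Lratd1, the GTPase-activating protein Arhgap8, the endolysosomal channel Tpcn2 and the Rab11 effector Rab11fip4. Their gaps ran from 2.37 for Tmprss2 to 2.72 for Krt15. Of the 15, 7 (Obp2b, Lad1, Isyna1, Stap2, Arhgap8, Tpcn2 and Rab11fip4) passed the filter only through the gland-rich arrays. For those that were dim in all 3 gland-poor arrays the size of the gap depends on the added constant: that of Arhgap8 was 4.02 with 1 and 1.29 with 64 in place of 16.

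Control 4 was placed among the other 4 arrays with probe sets chosen without it. On 484 probe sets where controls 3 and 5 lay at least 2-fold above controls 1 and 2, control 4 was set on a linear scale with 0% at the higher of controls 1 and 2 and 100% at the lower of controls 3 and 5. Its median position was 16.7%, with quartiles of 8.08% and 26.4%. It lay between the sets on 430 of the 484, at or below controls 1 and 2 on 44, and at or above the lower gland-rich array on 10. On the 102 probe sets at least 2-fold lower in controls 3 and 5, its median position was 3.30%, with quartiles of -32.9% and 31.3%. On this linear scale control 4 lay nearer to controls 1 and 2 on 462 of the 484 and 90 of the 102, at no fixed share. The 484 were not limited to gland genes and include Pigr, which chose the sets. Its place also depended on the scale and the list. In log2, the simple epithelium mean was 6.10, 7.67 and 9.15 in controls 2, 4 and 3, with control 4 no nearer to control 2. The ER list mean, 9.13, 9.47 and 10.62 in the same arrays, put control 4 nearer to control 2. Of the 328 probe sets at least 2-fold higher than in all 3 gland-poor arrays, control 5 exceeded control 3 on 292 (89.0%).

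**Figure D3:**
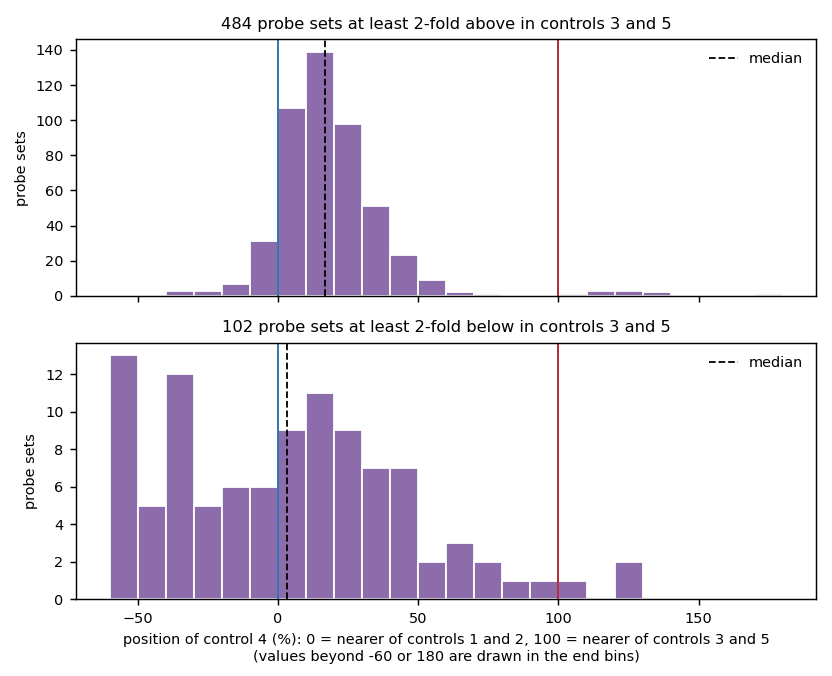
Position of control 4 (horizontal axis, %) between controls 1 and 2 (0%, blue line) and controls 3 and 5 (100%, red line) on probe sets at least 2-fold apart between those 4 arrays; bars count probe sets in 10% bins and the dashed line is the median. In the upper panel most of the 484 sit between 0 and 50%, with a median of 16.7%, and 10 lie beyond the red line; in the lower panel the 102 spread widely around a median of 3.30%.

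Genes of acute inflammation lay lower in the gland-rich arrays, and no other list held more than 1 gene lower by at least 2-fold. Of 9 such genes on the array 8 passed, 6 lay lower by at least 2-fold and 2 overlapped. Ptgs2 passed only through the gland-poor arrays. Among all probe sets 27.0% lay lower, 0.670% by at least 2-fold. The list mean was 9.73, 10.60 and 9.50 in the gland-poor arrays and 5.57 and 8.10 in the gland-rich arrays. Within scan days the median difference was -1.88 on day 1 and -5.28 on day 3, so control 3 was much lower than control 5. Here control 4 stood with controls 1 and 2 and not between the sets.

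Cxcl1, a chemokine that draws neutrophils, was 5362, 5123 and 4825 in the gland-poor arrays and 91.6 and 1097 in the gland-rich arrays, 4.35-fold apart between nearest arrays. Il6, an acute-phase cytokine, was 853, 1118 and 1051 against 2.5 and 169, 4.70-fold apart. Cxcl2, a related chemokine, was 1217, 1761 and 1602 against 40.3 and 291, 4.01-fold apart. Controls 1, 2 and 4 were close together in these genes, control 5 lay well below them and control 3 was lowest, with Il6 near the bottom of the array. Ccl2, which draws monocytes, was 1885, 2675 and 2233 against 103 and 665, a gap of -1.48. Ptgs2, the inducible cyclooxygenase, was 327, 267 and 402 against 28.8 and 70, a gap of -1.72. Il1b, a cytokine chosen after its values were seen, was 368, 1107 and 257 against 49.1 and 97.2, a gap of -1.27.
The calgranulin S100a9, a neutrophil protein, was 888, 3459 and 356 against 22.1 and 476. Its partner S100a8, chosen afterwards, was 187, 1091 and 80.9 against 1.5 and 138. Both peaked in control 2 and were lowest in control 3, and control 5 lay above control 4, so the sets overlapped. The neutrophil receptor Cxcr2 did not pass the filter on these arrays.

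Beside the listed inflammatory genes, the 15 largest gaps below held Selp, Icam1 and Plau. Of the 15, 8 passed the filter only through the gland-poor arrays. Selp, the P-selectin of activated endothelium and platelets, was 219, 245 and 357 against 24.4 and 35.4, 4.57-fold apart, while its other probe set, which did not pass the filter, was 1.12-fold apart. Icam1, a leukocyte adhesion molecule, was 1077, 904 and 1130.2 against 137 and 233, 3.70-fold apart. Plau, urokinase, was 745, 731 and 733 against 156 and 209, and its other probe set was 2.37-fold apart in the same direction. In all 3 the gland-rich arrays lay nearer to each other than for the chemokines. Ier5, an early-response gene, was 745, 893 and 818 against 177 and 183. Its other probe sets, which did not pass the filter, were 1.19-fold and 1.09-fold apart in the same direction. Got1, the cytosolic aspartate aminotransferase, was 769.8, 789 and 767 against 208 and 196. Llgl1, a cell polarity protein, was 133, 155 and 154 against 18.6 and 23.2. In Got1 and Llgl1 the arrays of each set lay close together. Col2a1, the cartilage collagen, was 89.4, 425 and 66.2 against 8.4 and 7.9 on this probe set, while its brighter probe set was only 1.21-fold apart. Gpsm3, LOC100912629, the Hsp40 family member Dnajb5 and Nkain1 closed the 15, with gaps from -1.71 for Gpsm3 to -1.57 for Nkain1. A brighter probe set of Dnajb5 was 1.94-fold apart in the same direction.

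Immediate-early genes, which cells induce within minutes of a stimulus, gave 13 of 19 lower, 1 higher and 5 overlapping, with 1 lower by at least 2-fold. Of the 19, 1 passed only through the gland-poor arrays. Among all probe sets 27.0% lay lower without overlap and 0.670% by at least 2-fold. The 1 higher was Jun, a subunit of the factor AP-1 chosen after its values were seen, at 826, 831 and 1067 against 1068 and 1563. The list mean was 9.87, 10.00 and 10.12 against 8.30 and 9.58, and the within-day medians were -0.18 on day 1 and -1.69 on day 3. The difference was thus mostly that of control 3. Egr1, a zinc finger factor, was 3862, 3676 and 3547 against 813 and 2143, a gap of -0.72. Nr4a1, an orphan nuclear receptor, was 3595, 4089.9 and 4372 against 1472 and 5775, with the highest and the lowest array both in the gland-rich set. Zfp36, which destabilises cytokine mRNAs, was 3129.5, 3108 and 3381 against 954 and 3186. Dusp1, a MAP kinase phosphatase, was 3314, 3443 and 3685 against 1742 and 4229.7, and Klf4 was 2094, 2318 and 2665 against 777 and 2612. In Nr4a1, Zfp36, Dusp1 and Klf4 control 3 was low and control 5 lay within or above the gland-poor range. Ier3, the gene at least 2-fold lower and so chosen after its values were seen, was 1944, 2541 and 2780 against 249 and 689. No source used here gives the handling time of each tissue, and its part in these genes was not tested.

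**Figure D4:**
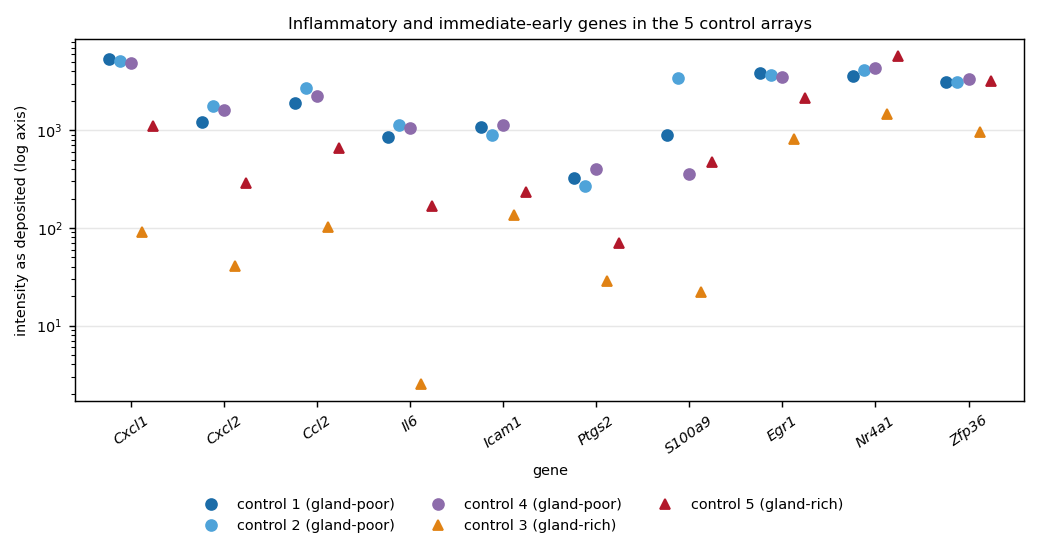
Deposited intensity (log axis) of inflammatory genes (Cxcl1 to S100a9) and immediate-early genes (Egr1 to Zfp36) in the 5 control arrays; circles are gland-poor and triangles gland-rich arrays, one point per array. Controls 1, 2 and 4 lie together for the chemokines with control 5 below and control 3 lowest, and for Nr4a1 and Zfp36 only control 3 is low.

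Stromal genes lay slightly lower or overlapped, with no gene apart by 2-fold. Of 25 fibroblast and matrix genes, 14 were lower and 11 overlapped, and none was higher. For all probe sets the shares were 27.0% lower and 28.1% higher. The list mean was 10.40, 10.34 and 10.08 against 9.99 and 9.43, with control 5 lowest and controls 3 and 4 close to each other. Dcn, the proteoglycan decorin, was 8668, 7437 and 6598 against 6910.5 and 4685. Col3a1, a fibrillar collagen, was 5564, 6148 and 3611 against 4501 and 2881. Both overlapped because control 4 lay below control 3. Col1a1 and Col1a2, the chains of type I collagen, also overlapped, at 7817, 9357 and 5343 against 8298 and 6938 for Col1a1 and 6379, 7257 and 4898 against 6136 and 6214 for Col1a2. Sparc, a collagen-binding matrix protein, was 2746, 3077 and 2229.6 against 2984 and 1826.

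Cartilage and bone genes pointed to controls 1 and 2 and not to the gland-poor set as a whole. Of 10 that passed, 5 were lower (Comp, Spp1, Col11a1, Col2a1 and Ibsp), 1 higher (Col9a2, which passed only through the gland-rich arrays) and 4 overlapped. Of the 10, 4 passed only through the gland-poor arrays, Ibsp and Bglap among them. Among all probe sets 27.0% lay lower, and 10 genes are too few to tell their count from that share. The list mean was 7.54, 8.24 and 6.66 against 6.46 and 6.46. Bglap, the bone protein osteocalcin, and Ibsp, bone sialoprotein, were chosen after their values were seen. Bglap was 392, 806 and 1.7 against 1.8 and 1.4, and Ibsp was 129.6, 268 and 5.6 against 3.4 and 3.7. Controls 1 and 2 carried both transcripts, and the other 3 arrays were near the bottom of the array. Spp1, osteopontin, was 645, 772 and 286 against 187 and 127, a gap of -0.57. Comp, a cartilage matrix protein, was 549, 632 and 649 against 308 and 209, with control 4 as high as controls 1 and 2. Acp5, the phosphatase of bone-resorbing cells, was 159, 367 and 96.3 against 137 and 143, highest in control 2. The part of bone tissue in the other differences was not tested.

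Smooth muscle genes were measured on all 5 arrays and did not separate the sets. Of 14 genes 3 were higher (Tagln, Tpm2 and Myl9), 4 lower (Des, Cald1, Smtn and Lmod1) and 7 overlapped. For all probe sets the shares were 28.1% higher and 27.0% lower. Acta2, smooth muscle actin, was 1159.7, 1262 and 1780.3 against 1724 and 1389. Myh11 overlapped likewise, and Mylk, myosin light chain kinase, was 1819.7, 1902 and 2348 against 2379 and 1728. Tagln, an actin-binding protein of smooth muscle, was 1327, 1031 and 1581 against 1860.4 and 1891, a gap of 0.23. Des, desmin, which striated muscle also makes, was 5947, 6232 and 5116 against 4534 and 3301. Synpo2, an actin-bundling protein, was 1614, 1862 and 1615 against 1629.9 and 914, with control 5 apart from the other 4.
Of 8 nitric oxide, cGMP and contractile signalling genes that passed, 2 were higher, 3 lower and 3 overlapped. Of the 8, 1 passed only through the gland-poor arrays. Gja1, the connexin that couples cavernosal smooth muscle cells, was 819, 860.1 and 678 against 475 and 371, a gap of -0.50. Gucy1a1, a subunit of the nitric oxide receptor, was 618, 496 and 537 against 722 and 340.3.

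Skeletal muscle transcripts were among the brightest on every array, although the tissue is labelled cavernosal. Of 27 fast and general muscle genes 6 were higher, 10 lower and 11 overlapped, where 28.1% of all probe sets were higher and 27.0% lower. Ckm, muscle creatine kinase, was 11123, 11253 and 9284 against 12297 and 13231, and Actn3, the actinin of fast fibres, was 11282, 11519 and 9117 against 12687 and 11628. The values of Ckm, Actn3 and the calcium pump Atp2a1 were highest in the gland-rich arrays by small margins, and control 4 was lowest. Genes at this brightness spanned a narrow range of intensities on all arrays. Cacna1s, the calcium channel of skeletal muscle and the 1 gene of the list at least 2-fold lower, was 897, 1138 and 828 against 369 and 368 and was chosen after its values were seen. Myh2, a myosin of fast oxidative fibres also chosen afterwards, was 106 in control 5 and between 770.4 and 1183 in the others. Slow fibre genes gave 2 of 5 lower (Tnni1 and Tnnc1) and 3 overlapping. Csrp3, a muscle LIM protein, was 2603 in control 3 and 11.3 in control 5, with 472, 362 and 472 in the gland-poor arrays, so the extremes were both gland-rich.

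Mitochondrial genes lay mildly lower or overlapped. Of 26 oxidative phosphorylation genes 14 lay lower, 1 higher (Cox8a) and 11 overlapped. The shares over all probe sets were 27.0% lower and 28.1% higher. The list mean was 10.79, 10.84 and 10.60 against 10.46 and 10.26. Cox4i1, a subunit of cytochrome oxidase, was 5121, 4856 and 4145 against 3358 and 2702, a gap of -0.30. Atp5f1b, of ATP synthase, was 6453, 6571 and 5424 against 5596 and 5884 and overlapped. Glycolytic genes split, with 5 of 12 higher (Aldoa, Pgam1, Eno1, Ldhb and Pfkl), 4 lower (Pfkm, Pgk1, Gpi and Hk2) and 3 overlapping. Pfkm, the muscle phosphofructokinase, was 4896, 5754 and 4813 against 3397 and 2612. Eno1, the enolase of non-muscle cells and chosen after its values were seen, was 657, 686 and 863 against 1409.7 and 1965.

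Vascular and fat genes lay slightly lower or overlapped, and control 5 was lowest in each list. Over all probe sets 27.0% lay lower without overlap, and these lists are too short to tell their counts from that share. Endothelial genes gave 5 of 12 lower (Esam, Cldn5, Plvap, Icam2 and Flt1) and 7 overlapping, with list means of 7.98, 7.95 and 8.15 against 7.84 and 7.46. Of the 12, 1 passed only through the gland-poor arrays. Emcn, an endothelial sialomucin, was 823, 650.2 and 693 against 728 and 613, and Esam, an endothelial adhesion molecule, was 579, 594 and 608 against 416 and 342, a gap of -0.46. Kdr, the main receptor for vascular endothelial growth factor, was 236, 191 and 356 against 202 and 190.3. Pericyte genes gave 2 of 6 lower (Abcc9 and Pdgfrb) and 4 overlapping. Of the 6, 2 passed only through the gland-poor arrays, Pdgfrb among them. Pdgfrb, the receptor that recruits pericytes, was 144, 154 and 173 against 79.8 and 55.1. Adipocyte genes gave 3 of 8 lower (Gpd1, Cidea and Pparg) and 5 overlapping. Of the 8, 1 passed only through the gland-poor arrays. Fabp4, a fatty acid carrier of fat cells, was 672, 586 and 307 against 362 and 114, and Cfd, the adipocyte product adipsin, was 527, 609 and 152 against 229.5 and 119. Both fat genes were highest in controls 1 and 2 and lowest in control 5.

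Schwann cell and nerve genes lay in both directions. Of 9 that passed, 2 were higher (Sox10 and Mag), 4 lower (Pmp22, S100b, Mbp and Gap43) and 3 overlapped. With 28.1% of all probe sets higher and 27.0% lower, 9 genes are too few to tell these counts from the shares. Pmp22, a protein of peripheral myelin, was 2534, 1914 and 2019 against 1397 and 1006, a gap of -0.45. Mbp, myelin basic protein, was 1015, 693 and 842 against 578 and 299, a gap of -0.26. S100b, a calcium-binding protein of Schwann cells, was 941, 1007 and 1001 against 804 and 363. Control 5 was lowest in all 3, while Mag, another myelin gene, was near level at 87.1, 67.1 and 103 against 106 and 107. Sox10, a transcription factor of Schwann cells that in the mouse is also found in salivary gland epithelium, went the other way at 20.1, 52.3 and 162 against 418 and 602, a gap of 1.29. Its order over the arrays was that of the simple epithelial genes, controls 1, 2, 4, 3 and 5.
Mast cell genes were mixed as well. Kit, a receptor of mast cells and of several progenitor cells, was 8.7, 49.6 and 61.1 against 197 and 208, a gap of 1.46, and it passed only through the gland-rich arrays. Cpa3, a mast cell protease, was 197, 213 and 151 against 149 and 95.6, a gap of -0.02, and Tpsb2, a tryptase, was 126, 130.3 and 114 against 139 and 112.

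Macrophage and MHC class II genes did not follow the gland genes, and lymphocyte genes were mixed. Of 16 macrophage and MHC class II genes 4 were lower (Cd14, RT1-Db1, C1qb and Aif1) and 12 overlapped, where 27.0% of all probe sets were lower. Cd74, the class II invariant chain, was 1200.4, 1403 and 1046 against 1388 and 1506. Cd14, a receptor for bacterial lipopolysaccharide, was 669.8, 769.7 and 760.4 against 480.2 and 354, a gap of -0.47. Lymphocyte genes gave 4 that passed out of 10 on the array, with 1 higher, 1 lower and 2 overlapping. Iglc1 and Ighl2, given above and outside this list, lay higher in the gland-rich arrays. Cd3g, a subunit of the T cell receptor complex, was 70.1, 71.4 and 88.5 against 175 and 216, a gap of 0.87, whereas Cd4 was 189, 163 and 152 against 146 and 123. Red blood cell genes were highest in control 2: Hbb, the beta globin, was 8714, 11905 and 4119.7 against 7205 and 5206, and Alas2, the haem synthesis enzyme of red cell precursors, was 644, 1528 and 317 against 746 and 459. Ahsp, a haemoglobin stabiliser of red cell precursors, was 608 in control 2 and 48.3 or less in the others. It did not pass the filter. Control 2 was also the array with the highest S100a8, S100a9, Acp5 and Bglap.

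Other cell programmes gave small or mixed differences. With 28.1% of all probe sets higher and 27.0% lower, these lists are too short to tell their counts from those shares. Heat shock genes gave 3 of 7 lower (Bag3, Hspb1 and Hsph1) and 4 overlapping, with Hspb1 at 1429, 1439 and 1530 against 1178 and 764 and Bag3 at 1269, 1933 and 2482 against 958 and 1156. Lipid synthesis genes of sebaceous and preputial glands gave 1 of 4 higher (Fasn), 2 lower (Dgat2 and Scd) and 1 overlapping. Of the 4, 1 passed only through the gland-poor arrays. Dgat2, which makes triglyceride, was 351, 529.5 and 473 against 228 and 249.8, and Fasn, fatty acid synthase, was 106, 141 and 156 against 186 and 179.8. With 4 genes measured, this list marked neither set.

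A probe set whose sets do not overlap has the same direction in both scan-day pairs by construction, so the pairs add only the size of the difference within a day. For the 328 probe sets at least 2-fold higher, the median within-day difference was 2.43 on day 1 and 2.04 on day 3. For the 68 at least 2-fold lower it was -1.56 on day 1 and -1.74 on day 3. Fibroblast and matrix genes had medians of -0.93 on day 1 and -0.41 on day 3. Skeletal muscle genes had medians of -0.27 and -0.16, and smooth muscle genes 0.09 and 0.34. Among the lists, the inflammation genes differed most in size between the days.

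**Figure D5:**
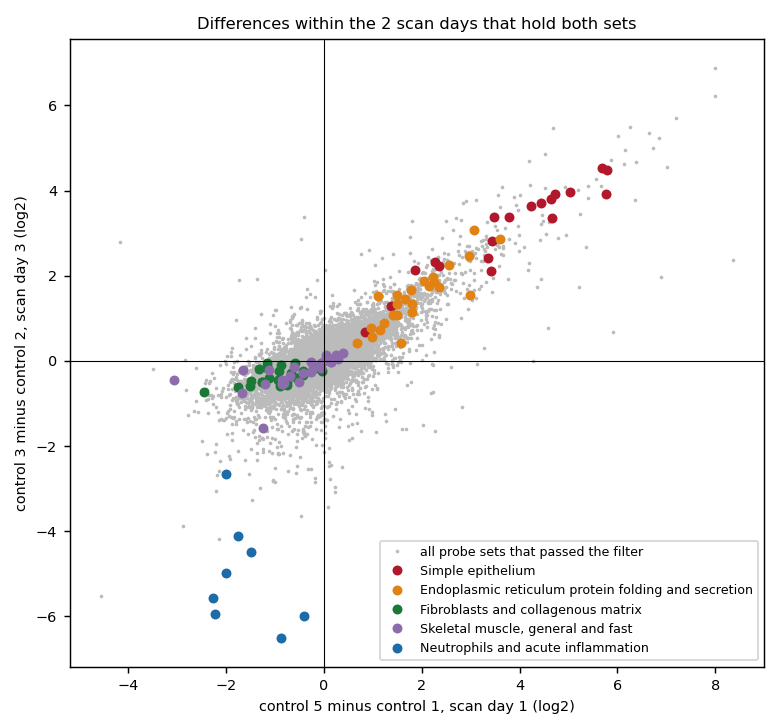
Difference of control 5 minus control 1 (horizontal axis, log2, scan day 1) and of control 3 minus control 2 (vertical axis, log2, scan day 3) for each of the 10145 probe sets in grey, with genes of 5 lists in colour. Simple epithelium and ER genes lie in the upper right along the diagonal, matrix and skeletal muscle genes near or below zero, and inflammation genes far below zero on scan day 3.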

How the data were processed

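Total RNA of each sample was hybridised to 1 Affymetrix array. The deposited table holds the authors' linear intensity for each probe set. The software and scaling that made it are not given in the sources used here. After trimming 2% at each end, the array means ranged from 247.9 to 248.3, so values are relative within an array. The 57 Affymetrix control rows were left out. Symbols came from the platform annotation, 12748 of them updated by Entrez ID in RefSeq. Scan day, operator and station are from the file headers.

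The sets were split on Pigr, and the diabetic arrays stayed out. Values below 1 were set to 1, 16 was added and log2 was taken. Probe sets passed with at least 2 of 5 arrays above the 40th percentile (83.5). Gene lists read each gene by its brightest probe set; 29 lists held 543 entries. Named genes were up to 5 brightest per list, the 15 largest gaps each way and Pigr, and others are said to be chosen after their values were seen. The members and lists were chosen with earlier results of these data known. The arrays chose the sets, so no test was run. Precision is limited by having 5 arrays. Where nothing says that arrays came from separate animals, the spread between them may be technical. The gap computation was checked on simulated data. Alternatives were other pseudocounts, filters, centring, quantile normalization, scan-day pairs, each array left out and mean probe sets. Python 3.11.15, pandas 2.3.3, numpy 2.4.6 and matplotlib 3.10.9 were used.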

Additional observations from a re-analysis of the deposited data

Results flagged for a closer look

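In 1 of 28 gene lists and 7 of 156 genes, 1 of the 5 arrays lay apart from the other 4 by more than 0.71 of the whole range, Dixon's limit for 5 arrays, and chance alone flags about 1 in 20. Among the lists and genes examined, controls 3, 4 and 5 were the arrays apart, and controls 1 and 2 never were. Only genes that passed the filter were examined. A gene above the filter in 1 array alone could not be flagged, such as Krt10 in control 1 or Ahsp in control 2. The slow skeletal muscle list had a mean log2 level of 6.744 in control 5, with the nearest array at 8.13. Control 5 was also the lowest for Synpo2, an actin-bundling protein, at 9.861 (nearest 10.67), and for S100b, a Schwann cell protein, at 8.566 (nearest 9.679). Control 3 was the lowest for 3 immediate-early genes: Dusp1 at 10.78 (nearest 11.70), Zfp36 at 9.921 (nearest 11.61) and Klf4 at 9.631 (nearest 11.04). Control 4 was the lowest for Tnni2, a fast troponin, at 13.13 (nearest 13.46), and the highest for Cidea, a lipid droplet protein, at 7.625 (nearest 7.12). All values are log2 of intensity plus 16.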

How the results depend on the processing

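Of 52 recomputed counts of probe sets, 39 stayed within 1.5 times the reported value. The exceptions came from a larger pseudocount, from pairs and from leaving out an array. With a pseudocount of 64, 31 probe sets were lower by at least 2-fold. The day 1 pair alone gave 4781 higher, 5357 lower, 980 higher by at least 2-fold and 810 lower by at least 2-fold, and the day 3 pair 5315, 4822, 649 and 335; with 1 array a set no overlap can occur. Leaving out 1 array gave 3090 to 3837 higher and 3080 to 4246 lower, and by at least 2-fold 340 to 626 higher and 78 to 414 lower; fewer arrays to clear raise these counts by construction. For the 30 genes with the largest gaps, other pseudocounts, filters, pairs or fewer arrays cannot turn the sign; centring and quantile normalization could and did not. Of their values, 278 of 390 moved by less than the spread between arrays. Of 392 gaps between list means, 319 did so; the adipocyte, cornified, lymphocyte and mast cell lists came to overlap under at least 1 alternative. Among lists whose means overlap over 5 arrays, the 2 pairs went opposite ways for nerve (-0.40 on day 1, 0.25 on day 3), slow muscle (-1.73, 0.14) and sebaceous genes (0.33, -0.20), and accessory gland genes separated by 3.41 without control 4. No paired analysis was possible because the labels give no replicate numbers that pair arrays; the scan-day pairs stand in for it. Dim probe sets carry the least precise values, and 291 control values below 1 were raised to 1.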
